A study of Mus musculus with 12 samples.

Results

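Genes of the Toll-like receptor (TLR) and NF-kB pathway were described in the hippocampus of 12 mice. Members were the genes of the deposited table whose symbol starts with Tlr, Nfkb, Rel, Ikbk, Irak, Traf, Ripk, Map3k, Map2k, Mapk, Ticam, Tirap or Tollip, or is Myd88, Ly96, Cd14, Chuk, Tnfaip3 or Tab1. This rule uses no measured value, but it was chosen with earlier results of these data known. It found 33 of 770 genes. Genes of the rule with no row in the table (Ly96, Tnfaip3, Tab1 and any Ticam, Tirap or Tollip gene) were not analysed here. The Rel prefix also caught Reln, which encodes the secreted protein reelin and is not a subunit of NF-kB. It is counted as a member and described apart.

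The 4 groups held 3 mice each: mtOGG1 females, control females, mtOGG1 males and control males, all 13 months old and of the C57BL6/J background per the labels. By the series title the mtOGG1 mice carry OGG1, a glycosylase that removes oxidised guanine from DNA, in their mitochondria. The promoter that drives it and the cells that carry it are not given in the sources used here. The comparison of mtOGG1 with control mice asks, per the same title, about inflammation of the ageing brain. RNA was counted with the NanoString nCounter assay, which counts barcoded probes molecule by molecule without amplification. Nothing in the labels says whether mice were littermates, and p-values measure the spread between these samples.

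Toll-like receptors recognise microbial products and material released from damaged cells, in brain above all on microglia. Through the adaptor MyD88, kinases of the IRAK family and ubiquitin ligases of the TRAF family they activate the IkB kinase (IKK) complex and the MAP kinases. IKK marks the IkB inhibitors for degradation, and the freed NF-kB dimers switch on cytokine genes together with genes of their own inhibitors. Much of this control acts on proteins, which transcript counts do not measure. Several members have other roles in neurons, where MAP kinases also serve synaptic signalling.

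Values are normalized counts. The authors' table holds nothing below 20 for a gene, so a value of 20 is a floor that stands for any lower level, and the whole counts behind the values above it summed to between 281838 and 418467 per mouse. Levels of different genes rest on different probes and are not compared with each other. Differences are log2 ratios of mtOGG1 over control, taken on log2(value + 1), which understate the change of genes near the floor. Of the 770 genes, 608 exceeded the floor in at least 3 mice and were tested. Mice differed in genes of neighbouring regions: the choroid plexus gene Ttr ranged over 46.8 to 826 in mtOGG1 females, 20 to 1187 in control females, 1173 to 1525 in mtOGG1 males and 35.6 to 1510.2 in control males, and Slc17a6, a glutamate transporter of neurons below the cortex, over 515 to 1374 in mtOGG1 females, 195 to 1208 in control females, 403 to 1597 in mtOGG1 males and 222 to 726 in control males. The summed level of 10 microglia and macrophage markers was 2141 to 2862 in mtOGG1 females, 2119.5 to 2709 in control females, 2306 to 2407 in mtOGG1 males and 1975 to 2334 in control males. These ranges overlapped between genotypes in both sexes. All 7 markers of blood leukocytes in the table were at the floor in every mouse. Less RNA per cell and fewer cells of a type cannot be told apart in such bulk tissue.

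Most members were measurable. Of the 33 members, 22 exceeded the floor in all 12 mice. The inhibitory kinase gene Irak3 did so in 10 mice, and 7 others did so in 3 to 6 mice: Cd14, Tlr7, Ripk1, Traf1, Nfkb2, Nfkbie and Map3k14. Tlr2, Ikbke and Mapk12 were at the floor in every mouse, which leaves 30 tested members. Tlr2 encodes a receptor for bacterial lipoproteins, Ikbke an IKK-related kinase of the interferon response and Mapk12 a MAP kinase known best from muscle. A difference in these 3 genes was not detectable at this depth. The highest negative control probe reached 14 counts, below the floor.

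Over both sexes none of the 30 tested members passed the test for a difference between mtOGG1 and control mice (limma, Benjamini-Hochberg adjusted p under 0.05 over all genes). Over all genes tested the share that passed was 1.32% (8 of 608). At an unadjusted p under 0.05 there was 1 member, Map3k1, where 11.7% of all genes tested reached that level. An ordinary linear model passed 0 members after adjustment and gave 1 at the unadjusted level, Chuk in place of Map3k1. The members' log2 ratios ran from -0.35 for Map3k1 to 0.17 for Traf3. Their median was -0.072, beside -0.0086 over all genes tested. Values were below 0 for 22 members, whereas 52.5% of all genes tested lay below 0. After centring each mouse on its median gene, 19 members were below 0 and their median was -0.024, beside 38.8% and 0.039 over all genes tested. With 13 panel reference genes it was 20 members and -0.031, beside 41.4% and 0.032 over all genes tested. These scalings moved the median of all genes by 0.05 and 0.04 on the log2 scale.

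**Figure D1:**
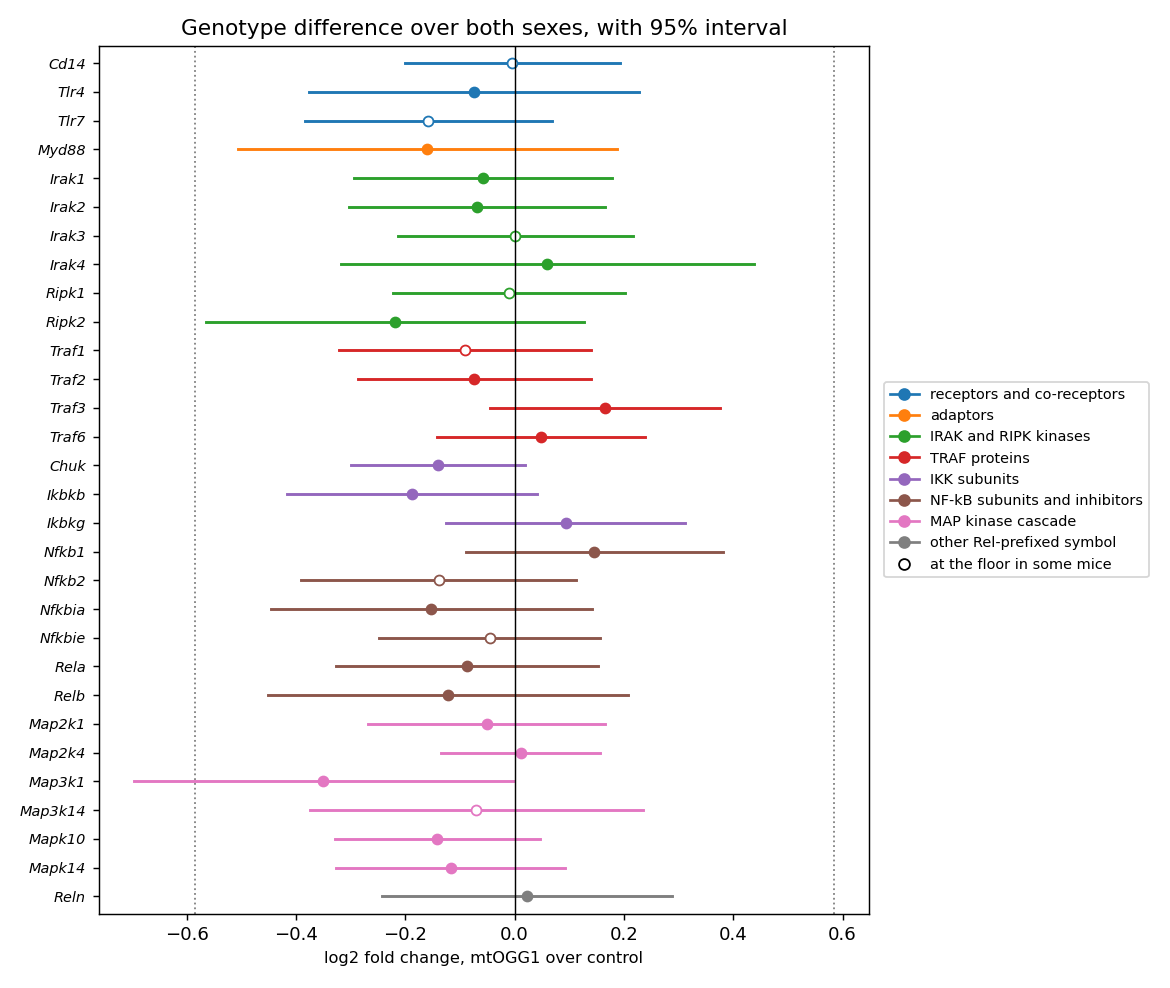
Log2 ratio of mtOGG1 over control mice over both sexes for the 30 tested members, grouped by role, with 95% limma intervals (6 mice per genotype; open circles mark genes at the floor in some mice, dotted lines a 1.5-fold change). Every interval includes 0 except that of Map3k1, which ends at -0.0035.

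The intervals show what size of difference the data could hold. For 21 of the 22 members above the floor in all mice, the 95% interval of the difference over both sexes lay within a 1.5-fold change in either direction, and Map3k1 was the exception. Half-widths of these intervals ran from 0.15 to 0.38 on the log2 scale. Within one sex they were wider, and 16 of the 22 lay within 1.5-fold in females and 18 of the 22 in males. A missed threshold does not show that the genotypes are alike, and for the 8 other tested members the floor narrows the intervals.

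Among receptors, Tlr4, which encodes the receptor for bacterial lipopolysaccharide, had 42.1, 40.9 and 30.2 in mtOGG1 females, against 33, 31.7 and 45.2 in control females. In males it had 29.2, 27.7 and 21.9 in mtOGG1 males, against 23.4, 34.1 and 33.6 in control males. The groups overlapped in both sexes, and the log2 ratio over both sexes was -0.074 (95% interval -0.38 to 0.23; adjusted p = 0.885 by limma). Tlr7, a receptor for single-stranded RNA in endosomes, exceeded the floor in 1 of 6 mtOGG1 mice and 5 of 6 control mice. Its values were 20, 27.3 and 20 in mtOGG1 females, against 25.4, 25.8 and 22.6 in control females. They were 20, 20 and 20 in mtOGG1 males, against 25.4, 23.1 and 20 in control males, and the log2 ratio was -0.16 (95% interval -0.38 to 0.068; adjusted p = 0.581 by limma). Cd14, the co-receptor that hands lipopolysaccharide to the receptor complex, exceeded the floor in 1 mtOGG1 and 2 control mice, with a highest value of 24.6.

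Myd88, the adaptor through which most Toll-like receptors and the interleukin 1 receptor signal, was the member of its role in the table. It had 42.1, 44.4 and 26.4 in mtOGG1 females, against 44.4, 33.7 and 57.7 in control females. In males it had 47.1, 46.5 and 42.9 in mtOGG1 males, against 41.7, 60.9 and 41.8 in control males. The groups overlapped, and the log2 ratio was -0.16 (95% interval -0.51 to 0.19; adjusted p = 0.742 by limma).

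The IRAK and RIPK kinases relay the signal from the receptors, IRAK from Toll-like and interleukin 1 receptors, RIPK1 from the tumour necrosis factor receptor and RIPK2 from NOD receptors. Of 6 tested kinase genes, 4 had values below 0 and 2 above 0, with a median log2 ratio of -0.034. Irak2 had 184, 196 and 138 in mtOGG1 females, against 183, 145 and 198 in control females. In males Irak2 had 154, 139 and 143 in mtOGG1 males, against 143, 164 and 164 in control males. The groups overlapped in both sexes. Irak2 averaged 159 ± 24.9 in mtOGG1 mice and 166 ± 21.3 in control mice (SD, n = 6 each), and its log2 ratio was -0.07 (limma, adjusted p = 0.874). Irak1 averaged 135 ± 6.85 in mtOGG1 mice and 142 ± 22.4 in control mice (SD, n = 6 each), and Irak4, the kinase first recruited to MyD88, 29.9 ± 7.84 in mtOGG1 mice and 28.7 ± 7.98 in control mice (SD, n = 6 each). Ripk2 had 48, 59.1 and 58.5 in mtOGG1 females, against 78.7, 61.5 and 44.1 in control females. In males Ripk2 had 60.3, 40.5 and 34.7 in mtOGG1 males, against 47.8, 55.3 and 63.1 in control males, and its log2 ratio over both sexes was -0.22 (95% interval -0.56 to 0.13; adjusted p = 0.625 by limma). Ripk1 exceeded the floor in 4 mice, 3 of them mtOGG1, with a highest value of 26.8 in a control female.

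TRAF proteins join the receptors to the downstream kinases. Traf3, which restrains the alternative NF-kB pathway and takes part in interferon induction, had 181, 204 and 167 in mtOGG1 females, against 173, 155 and 198 in control females. In males Traf3 had 181, 244 and 197 in mtOGG1 males, against 172, 176 and 168 in control males. Every mtOGG1 male lay above every control male, an order that 5.76% of all genes tested showed in males, while the females overlapped. The log2 ratio of Traf3 over both sexes was 0.17 (95% interval -0.044 to 0.38; adjusted p = 0.533 by limma). Traf6, the ubiquitin ligase downstream of the IRAK kinases, had 131, 126 and 126 in mtOGG1 females, against 126, 126 and 130.1 in control females. In males Traf6 had 131, 107 and 118 in mtOGG1 males, against 101, 122 and 112 in control males. The groups overlapped, and Traf6 averaged 123 ± 9.38 in mtOGG1 mice and 119 ± 11.1 in control mice (SD, n = 6 each), with a log2 ratio of 0.048 and an interval from -0.14 to 0.24. Traf2, an adaptor of tumour necrosis factor receptors, had 122, 97.8 and 103 in mtOGG1 females, against 141, 112 and 111 in control females. In males Traf2 had 119, 106 and 102 in mtOGG1 males, against 104, 112 and 106 in control males. These groups overlapped too, and Traf2 averaged 108 ± 9.71 in mtOGG1 mice and 114 ± 13.5 in control mice (SD, n = 6 each). Traf1 exceeded the floor in 2 mtOGG1 and 3 control mice.

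The IKK complex consists of the kinases encoded by Chuk (IKK alpha) and Ikbkb (IKK beta) and the scaffold encoded by Ikbkg (NEMO). Chuk had 337, 298 and 323 in mtOGG1 females, against 329.8, 326 and 316 in control females. In males Chuk had 296, 309 and 268 in mtOGG1 males, against 314, 379.9 and 352 in control males. All 3 mtOGG1 males lay below all control males, an order that 12% of all genes tested showed in males, and the females overlapped. The log2 ratio of Chuk over both sexes was -0.14 (95% interval -0.30 to 0.019; adjusted p = 0.502 by limma), and an exact two-sided permutation of genotype within sex gave p = 0.075. Ikbkb had 205, 189.9 and 164 in mtOGG1 females, against 216, 206 and 188 in control females. In males Ikbkb had 176, 204 and 135 in mtOGG1 males, against 181, 211 and 212 in control males, where the groups overlapped through a single mtOGG1 mouse. Its log2 ratio over both sexes was -0.19 (95% interval -0.42 to 0.042; adjusted p = 0.517 by limma). The ratio of Ikbkb was -0.092 with the Slc17a6 level as a covariate and -0.11 without mtOGG1 male 3. Ikbkg went the other way, with means of 145 ± 10.01 in mtOGG1 mice and 136 ± 19.1 in control mice (SD, n = 6 each) and a log2 ratio of 0.094 that did not pass either (limma, adjusted p = 0.761).

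Of the genes of NF-kB subunits and inhibitors, 5 of 6 had values below 0 and Nfkb1 had one above 0, and none passed. Nfkb1, which encodes the precursor of a DNA-binding subunit, had 138, 139.9 and 156 in mtOGG1 females, against 120.5, 129 and 145 in control females. In males it had 162, 134 and 133 in mtOGG1 males, against 104, 156 and 131 in control males, and the log2 ratio was 0.15 (95% interval -0.09 to 0.38; adjusted p = 0.635 by limma). The genotypes overlapped in both sexes. Rela, the main activating subunit, had 90.1, 75.1 and 81.1 in mtOGG1 females, against 83.7, 79.3 and 113 in control females. In males Rela had 75.4, 74.2 and 82.2 in mtOGG1 males, against 70.2, 80.2 and 86.1 in control males. The groups overlapped, and Rela averaged 79.7 ± 6.12 in mtOGG1 mice and 85.4 ± 14.6 in control mice (SD, n = 6 each), a log2 ratio of -0.087 (95% interval -0.33 to 0.15; adjusted p = 0.806 by limma). Relb, a subunit of the alternative pathway, averaged 76.7 ± 17.6 in mtOGG1 mice and 82 ± 8.76 in control mice (SD, n = 6 each). Nfkb2, the partner of Relb, exceeded the floor in 2 mtOGG1 and 3 control mice, and the inhibitor gene Nfkbie in 2 of each.

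Nfkbia encodes IkB alpha, the inhibitor that NF-kB induces in a negative feedback loop, so its transcript is often read as an output of the pathway. It had 59.7, 43.2 and 73.5 in mtOGG1 females, against 78.7, 71.4 and 75.8 in control females. In males it had 76.3, 63.3 and 50.2 in mtOGG1 males, against 54.9, 63.6 and 59 in control males. In females 2 of the 3 mtOGG1 mice lay below every control mouse and the third within their range, and in males the mtOGG1 values spread on both sides of the control values. The log2 ratio over both sexes was -0.15 (95% interval -0.45 to 0.14; adjusted p = 0.707 by limma), and with 1 mouse left out it ran from -0.24 (without mtOGG1 female 3) to -0.052 (without mtOGG1 female 2).

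Promoter sequence from RefSeq (build GRCm38.p6) was found for 26 of the 33 members and searched on both strands for the NF-kB consensus motif in the 250 bases before each start. No promoter sequence was found for Cd14, Ikbkb, Nfkb1, Relb, Ripk2, Tlr4 and Tlr7, which were not searched. The motif was present in 9 of 37 member promoters, beside 7.25% of 32851 promoters of all genes. By gene, 6 of the 26 members had a match, beside 8.23% of 27025 genes with promoter sequence. They were Tlr2, Nfkbia, Traf3, Nfkbie, Nfkb2 and Irak1, and Nfkb2 and Irak1 each had more than 1 matching promoter. Because a palindromic match reads on both strands, matches can overlap. The stretches below show the motif in capitals, in the direction of transcription. They come from Traf3 and from the matching members that encode NF-kB or its inhibitors. They lie at chr12:55492648-55492701, minus strand (Nfkbia), chr17:45555569-45555628, plus strand (Nfkbie), chr19:46304673-46304736, plus strand (1 of 3 matching promoters of Nfkb2) and chr12:111166335-111166369, plus strand (Traf3).
Nfkbia: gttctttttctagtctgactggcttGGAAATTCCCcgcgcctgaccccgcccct
Nfkbie: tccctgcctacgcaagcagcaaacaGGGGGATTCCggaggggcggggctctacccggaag
Nfkb2: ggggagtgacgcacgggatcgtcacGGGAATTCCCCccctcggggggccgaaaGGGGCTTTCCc
Traf3: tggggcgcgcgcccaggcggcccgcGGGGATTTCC
A match is a run of letters and not evidence of binding in these mice. In the counts, the 4 genes with these matches had log2 ratios of -0.15, -0.046, -0.14 and 0.17 over both sexes, in the same order, and none passed. Nfkbie and Nfkb2 exceeded the floor in only 4 and 5 of the 12 mice, so their ratios rest largely on floor values.

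The MAP kinase cascade carries the signal from the receptors to transcription factors such as AP-1, and 5 of its 6 tested genes had values below 0. Map3k1, a kinase that activates the JNK branch, had the most negative value of the members. It had 88.9, 105 and 74.5 in mtOGG1 females, against 124, 66.4 and 103 in control females. In males it had 85.8, 59.3 and 53 in mtOGG1 males, against 89.5, 101 and 106 in control males. Every mtOGG1 male lay below every control male, as in 12% of all genes tested. The females overlapped, control female 2 being the lowest of the 6 females. Over both sexes Map3k1 averaged 77.7 ± 19.4 in mtOGG1 mice and 98.4 ± 19.3 in control mice (SD, n = 6 each), a log2 ratio of -0.35 and a standard error of 0.16 that did not pass (limma, unadjusted p = 0.048, adjusted p = 0.418). An exact two-sided permutation of genotype within sex gave p = 0.105. Without control female 2 the log2 ratio was -0.48 (limma, adjusted p = 0.149), and without control female 1 it was -0.25 (limma, adjusted p = 0.696).

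Mapk10, Map2k1, Map2k4 and Mapk14 lay far above the floor. Mapk10, a JNK kinase found mainly in neurons, had 2912, 2549 and 2221 in mtOGG1 females, against 2799.5, 3039 and 2346 in control females. In males it had 2362, 2715 and 2286 in mtOGG1 males, against 2897, 2802 and 2687 in control males, with 1 mtOGG1 male inside the control range, and the log2 ratio was -0.14 (95% interval -0.33 to 0.046; adjusted p = 0.533 by limma). Map2k1, which activates the ERK kinases, had 3762, 3409.8 and 2492 in mtOGG1 females, against 3407, 2991 and 3037 in control females. In males Map2k1 had 2820.2, 3336 and 2566 in mtOGG1 males, against 2984, 3251 and 3180.4 in control males. The groups overlapped in both sexes, and Map2k1 averaged 3064 ± 513 in mtOGG1 mice and 3142 ± 169 in control mice (SD, n = 6 each) with a log2 ratio of -0.051. Map2k4, which activates JNK, averaged 1290.1 ± 86.9 in mtOGG1 mice and 1279 ± 67.3 in control mice (SD, n = 6 each) with a log2 ratio of 0.012 and the narrowest interval of the members above the floor in all mice, from -0.13 to 0.16. Mapk14, a stress-activated kinase, averaged 411 ± 64.2 in mtOGG1 mice and 442 ± 34.8 in control mice (SD, n = 6 each) with a log2 ratio of -0.12. Map3k14, which starts the alternative NF-kB pathway, exceeded the floor in 2 mice of each genotype. Reln, a gene of interneurons, had 202, 206 and 173 in mtOGG1 females, against 251, 159 and 207 in control females. In males Reln had 180.0, 227 and 168 in mtOGG1 males, against 163, 160.4 and 208 in control males. The groups overlapped, and Reln averaged 193 ± 23 in mtOGG1 mice and 191 ± 37.3 in control mice (SD, n = 6 each), a log2 ratio of 0.023.

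**Figure D2:**
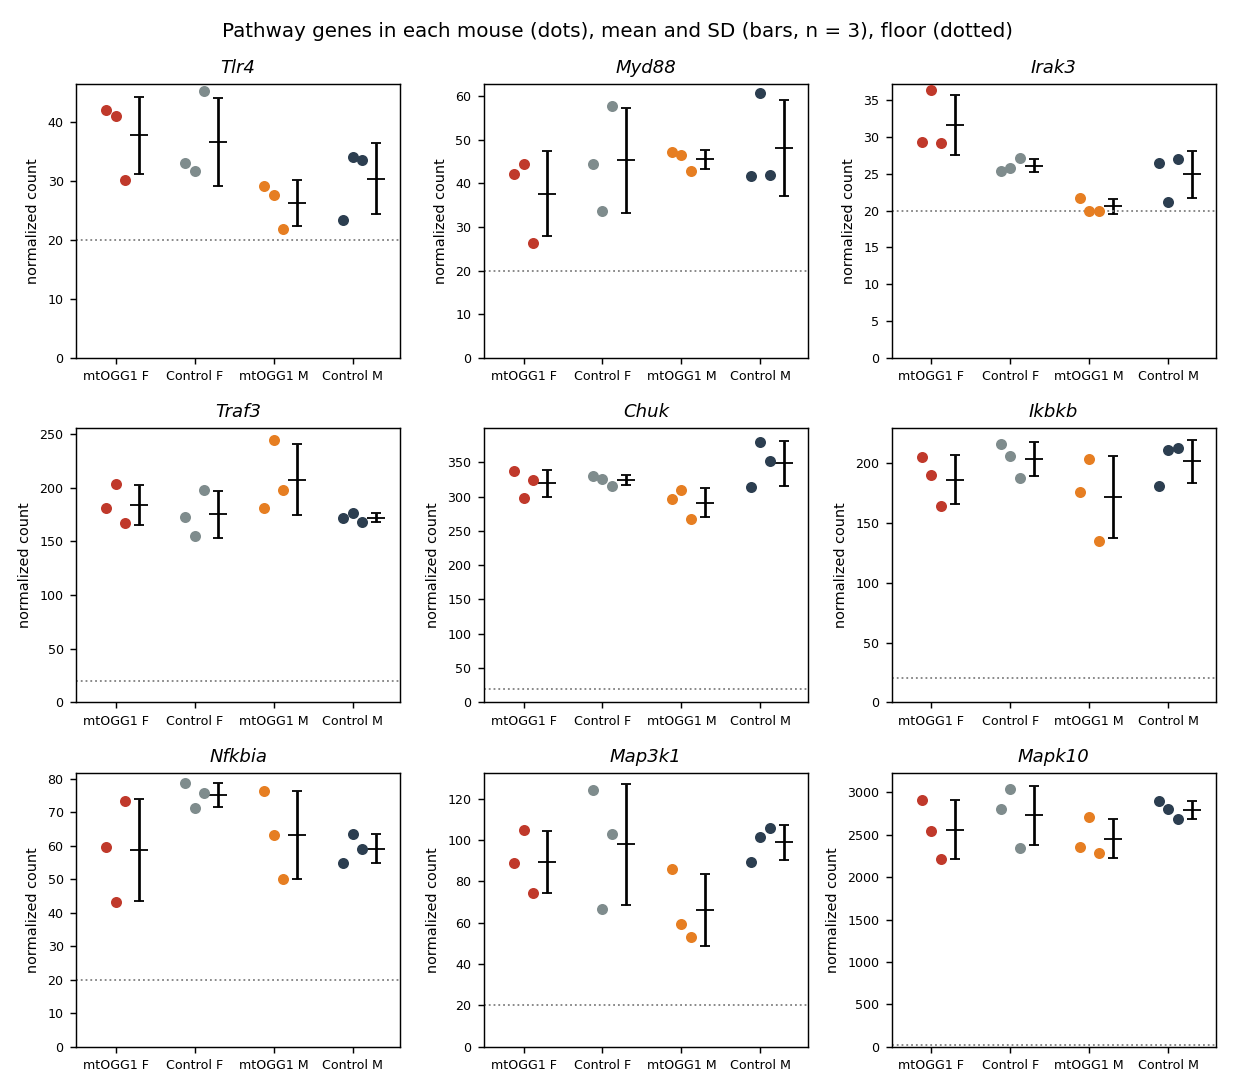
Normalized count of 9 members in each of the 12 mice, in 4 groups of 3 (dots), with the mean and SD beside them and the floor of 20 as a dotted line. Chuk and Map3k1 are lower and Traf3 higher in all 3 mtOGG1 males than in all control males, while the genotypes overlap in the other panels except Irak3 in females. Of all genes tested, 12% were lower and 5.76% higher without overlap in mtOGG1 males, and 1.81% higher in mtOGG1 females.

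Within females no member passed the test, and no gene of the table did (0%). At an unadjusted p under 0.05 there were 0 members by limma, and 2.96% of all genes tested, and an ordinary linear model gave 1 member at that level, Irak3, and called none. The smallest unadjusted p among members belonged to Nfkbia, which averaged 58.8 ± 15.2 in mtOGG1 females and 75.3 ± 3.66 in control females (SD, n = 3 each), a log2 ratio of -0.38 (95% interval -0.80 to 0.034; adjusted p = 1 by limma). It was -0.56 without mtOGG1 female 3 and -0.18 without mtOGG1 female 2. Next came Irak3, which encodes IRAK-M, a kinase-dead member that restrains the signal of its family. Irak3 had 29.2, 36.4 and 29.2 in mtOGG1 females, against 25.4, 25.8 and 27.1 in control females, and its log2 ratio was 0.26 (95% interval -0.043 to 0.56; adjusted p = 1 by limma). Every mtOGG1 female lay above every control female in Irak3, the only member with this order in females, where 1.81% of all genes tested showed it. The highest of these 6 values was 36.4, against the floor of 20. No member had the opposite order (3.45% of all genes tested). Values were below 0 for 19 of 30 members, beside 51.8% of all genes tested. The log2 ratios of Traf2 and Myd88 were -0.17 and -0.26 (limma, adjusted p = 1 each). With 1 mouse left out they ran from -0.26 (without mtOGG1 female 1) to -0.059 (without control female 1) for Traf2, and from -0.45 (without control female 2) to -0.032 (without mtOGG1 female 3) for Myd88.

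Within males no member passed either, while 0.987% of all genes tested did (6 of 608). Members at an unadjusted p under 0.05 by limma numbered 2, Map3k1 and Chuk (6.67% of the 30), beside 13.3% of all genes tested. An ordinary linear model also called none and gave 2 members at that level, Chuk and Irak3, but not Map3k1. Map3k1 averaged 66 ± 17.4 in mtOGG1 males and 98.9 ± 8.43 in control males (SD, n = 3 each), a log2 ratio of -0.60 (95% interval -1.09 to -0.11; adjusted p = 0.232 by limma). Chuk averaged 291 ± 21.3 in mtOGG1 males and 349 ± 32.9 in control males (SD, n = 3 each), a log2 ratio of -0.26 (95% interval -0.48 to -0.033; adjusted p = 0.278 by limma). Traf3 had a log2 ratio of 0.26 (95% interval -0.039 to 0.55; adjusted p = 0.449 by limma) and Irak3 one of -0.26 (95% interval -0.56 to 0.046; adjusted p = 0.457 by limma). Irak3 values were 21.7, 20 and 20 in mtOGG1 males, against 26.4, 21.2 and 27.1 in control males, with 2 of the mtOGG1 males at the floor, and a fold against the floor understates a difference. Groups did not overlap for 2 members lower in mtOGG1 males (12% of all genes tested) and 1 higher (5.76% of all genes tested). Values were below 0 for 19 of 30 members, beside 54.9% of all genes tested.

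Beside these values in males, the summed level of 6 endothelial markers was 617 to 702 in mtOGG1 males and 809 to 928 in control males, without overlap. That of 10 oligodendrocyte markers was 16197 to 22911 in mtOGG1 males and 11965 to 16294 in control males. Ttr was 1173 to 1525 in mtOGG1 males and 35.6 to 1510.2 in control males. Their part in the values of Map3k1, Chuk and Traf3 was not tested. With the Slc17a6 level of each mouse as a covariate, the male log2 ratios were -0.60 for Map3k1 (limma, adjusted p = 0.414) and -0.26 for Chuk (limma, adjusted p = 0.580).

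**Figure D3:**
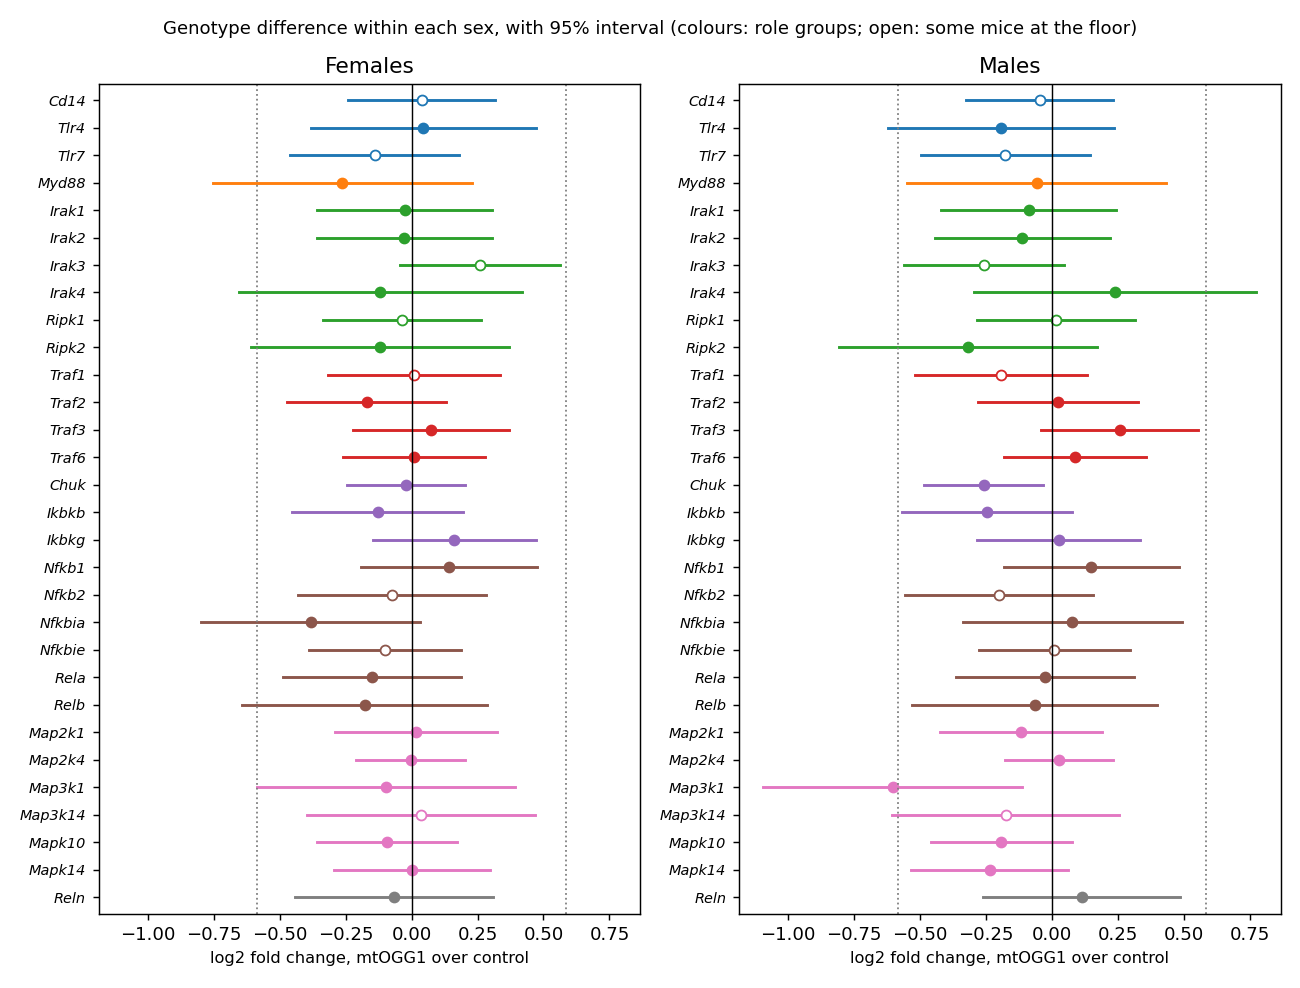
Log2 ratio of mtOGG1 over control within females (left) and within males (right) for the 30 tested members, with 95% limma intervals (3 mice per group; open circles mark genes at the floor in some mice, dotted lines a 1.5-fold change). In females every interval includes 0, and in males those of Chuk and Map3k1 do not.

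For the female minus the male genotype difference no member passed (0% of all genes tested, 29 of 608 or 4.77% at an unadjusted p under 0.05). An ordinary linear model also called none. Irak3 was the 1 member at that unadjusted level in both models. Its female minus male difference was 0.52 (95% interval 0.089 to 0.95; adjusted p = 0.932 by limma). The values for the next members were -0.46 for Nfkbia, 0.24 for Chuk and 0.51 for Map3k1 (limma, adjusted p = 0.959 each). The intervals of these 3 genes ran from -1.05 to 0.13, from -0.081 to 0.55 and from -0.19 to 1.20, so the order seen in males alone is not shown to be particular to males.

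Females and males were set against each other over both genotypes. No member passed, while 0.658% of all genes tested did (4 of 608). Members at an unadjusted p under 0.05 numbered 2, Irak3 and Tlr4, where 6.41% of all genes tested reached that level, and an ordinary linear model gave 3 and called none. Tlr4 averaged 37.2 ± 6.33 in females and 28.3 ± 5.06 in males (SD, n = 6 each), a log2 ratio of females over males of 0.38 (95% interval 0.081 to 0.69; adjusted p = 0.515 by limma). Irak3 averaged 28.9 ± 4.04 in females and 22.7 ± 3.19 in males (SD, n = 6 each), a log2 ratio of 0.33 (95% interval 0.12 to 0.55; adjusted p = 0.28 by limma). The ranges of the sexes overlapped in both genes: the lowest female had 25.4 and the highest male 27.1 for Irak3, and 30.2 and 34.1 for Tlr4. Irak2 and Traf6 had log2 ratios of 0.19 and 0.15 (limma, adjusted p = 0.829 each). Values were above 0 for 23 of the 30 members, and 33.2% of all genes tested lay below 0. After median centring 18 members were above 0, and 45.6% of all genes tested lay below 0. The sexes overlapped in all 30 members, where groups were apart for 0.493% (females lower) and 0.164% (females higher) of all genes tested.

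Genes on which the pathway acts were described from lists chosen with earlier results of these data known. Of 23 NF-kB and AP-1 target genes in the table, 11 were at the floor in every mouse, among them the cytokine genes Il1b and Tnf and the chemokine genes Ccl2 and Ccl5, and 8 were tested. Lcn2, a secreted iron-binding protein of reactive astrocytes, fell over both sexes (log2 ratio -0.80, limma adjusted p = 0.0164). Lcn2 had 20, 20 and 20 in mtOGG1 females, against 20, 29.7 and 20 in control females. In males Lcn2 had 20.7, 20 and 20.1 in mtOGG1 males, against 62, 72.8 and 37.7 in control males. The log2 ratio passed in males at -1.41 (limma, adjusted p = 0.00216) and not in females at -0.18 (limma, adjusted p = 1), and the difference between the sexes of 1.23 did not pass (limma, unadjusted p = 0.0011, adjusted p = 0.404). It averaged 20.1 ± 0.297 in mtOGG1 mice and 40.4 ± 22.2 in control mice (SD, n = 6 each), with 4 of 6 mtOGG1 and 2 of 6 control mice at the floor. It passed in 9 of 12 fits with 1 mouse left out, and not without control male 1, control male 2 or mtOGG1 female 3 (limma, highest adjusted p = 0.0604). Ptgs2, which encodes cyclooxygenase 2, averaged 97.5 ± 18.5 in mtOGG1 mice and 137 ± 19.2 in control mice (SD, n = 6 each), a log2 ratio of -0.50 that did not pass (limma, adjusted p = 0.0722). The log2 ratios of Cd83, a surface protein of activated myeloid cells, and Sod2, a mitochondrial superoxide dismutase, were 0.38 and 0.061, and neither passed. The median over the 8 tested targets was 0.053.

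Of 13 genes of other receptors and proximal proteins that feed NF-kB, 10 were tested, 6 of them above 0 and 4 below, and none passed. Bcl10, a scaffold of immune receptor signalling, averaged 195 ± 23.4 in mtOGG1 mice and 230.0 ± 19 in control mice (SD, n = 6 each), a log2 ratio of -0.24 (limma, adjusted p = 0.315). Il1r1, the interleukin 1 receptor that shares MyD88 and the IRAK kinases with Toll-like receptors, averaged 61.3 ± 16.6 in mtOGG1 mice and 49.2 ± 10.01 in control mice (SD, n = 6 each), a log2 ratio of 0.28 (limma, adjusted p = 0.503). Of 4 tested interferon regulatory factor genes, Irf7 had the value farthest from 0 at -0.36 (limma, adjusted p = 0.401), with 4 of 12 mice at the floor. The immediate early genes respond to MAP kinase signalling among other inputs. Of this list 3 of 6 tested genes passed (Arc, Fos and Egr1), all lower in mtOGG1 mice. Because the list was chosen with earlier results of these data known, this count cannot show that the list stands out. Arc and Fos passed in all 12 fits with 1 mouse left out, and Egr1 in 3 of them (limma, highest adjusted p = 0.139 without mtOGG1 male 3). The log2 ratio of Fos was -1.62 (limma, adjusted p = 5.52e-04), while Jun had 0.035 (limma, adjusted p = 0.904).

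The members differed in how much they varied between mice of one group. Among the 22 members above the floor in all mice the coefficient of variation within groups ran from 6.64% to 28.4%, with a median of 13.01%. The spread expected from counting alone was set beside it. For 6 members the observed spread was over 2 times the counting spread: Map2k1, Map2k4, Mapk10, Mapk14, Map3k1 and Reln. Map2k1 varied by 13%, against 1.82% from counting, and Mapk10 by 10.5% against 1.97%. The counting spread falls as counts rise, so a high ratio does not mean a high variation. Map2k1 was near the median variation, Mapk10 was below it, and Map2k4 had the lowest, at 6.64%. For 15 members the spread was 1 to 2 times the counting spread. Tlr4 varied by 18.7% where counting gives 17.8%. Traf6 varied less than counting alone would give, at 6.8% against 9.19%.

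**Figure D4:**
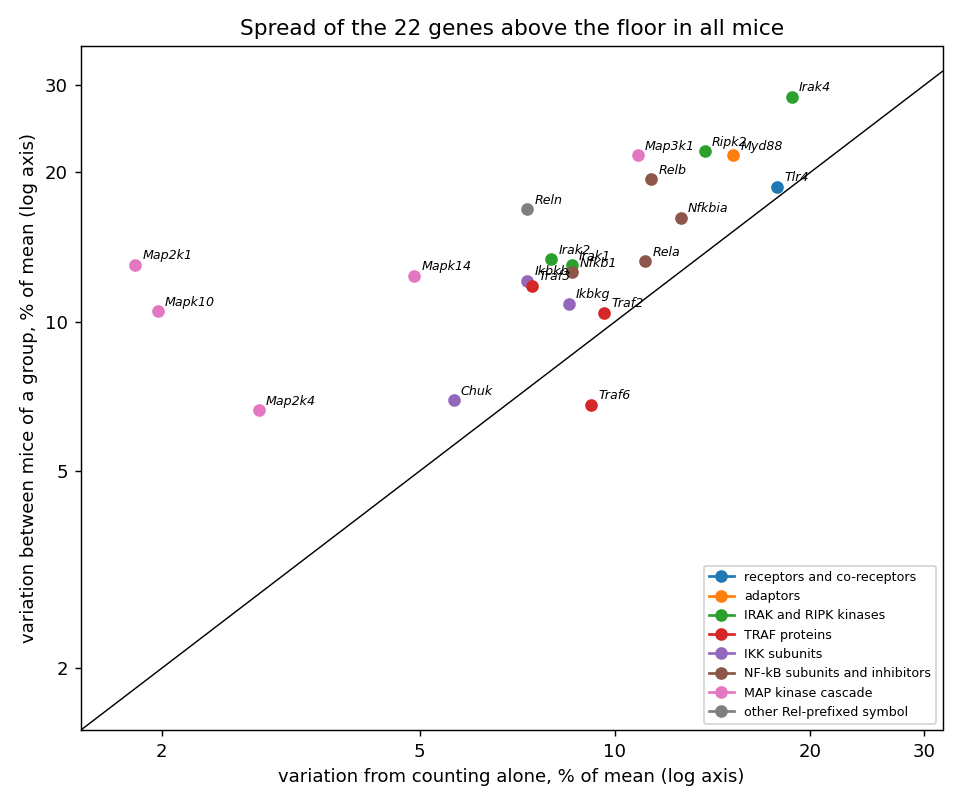
Coefficient of variation between mice of a group (vertical) against that expected from counting alone (horizontal) for the 22 members above the floor in all mice, both in percent of the mean on log axes, with the line of equality. The MAP kinase genes Map2k1 and Mapk10, which have the smallest counting spread, lie farthest above the line and Traf6 below it.

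Members were also set against cell type markers across the 12 mice, as deviations from group means, in 44 relations (22 members with a neuron sum of 9 genes, Slc17a6 left out, and with the microglia sum of 10). Mice were permuted within their groups in all 1296 orders (exact, two-sided). None passed after Benjamini-Hochberg adjustment over the 44, the smallest adjusted p being 0.181 for Pearson's r. The relation with the smallest p was that of Ikbkb with the neuron sum, at Pearson r = 0.92 (exact permutation p = 0.00617, adjusted p = 0.181) and Spearman rho = 0.89 (exact permutation p = 0.00772, adjusted p = 0.141). Without the 2 mice farthest from the median r was 0.91. Mapk10 and the neuron sum gave Pearson r = 0.82 (exact permutation p = 0.01, adjusted p = 0.181) and Spearman rho = 0.78 (exact permutation p = 0.017, adjusted p = 0.141), with r = 0.70 without the 2 farthest mice. Tlr4 and the microglia sum gave Pearson r = 0.76 (exact permutation p = 0.0247, adjusted p = 0.217) and Spearman rho = 0.80 (exact permutation p = 0.00926, adjusted p = 0.141), with r = 0.78 without the 2 farthest mice. Other members gave similar values: Map2k1 and Map2k4 had r = 0.86 and 0.80 with the neuron sum. Myd88 and Irak2 had r = 0.79 and 0.78 with the microglia sum, above that of Tlr4. Each mouse's values share 1 scaling factor, and r was above 0 for 18 of 22 members with the neuron sum and for 20 of 22 with the microglia sum.

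**Figure D5:**
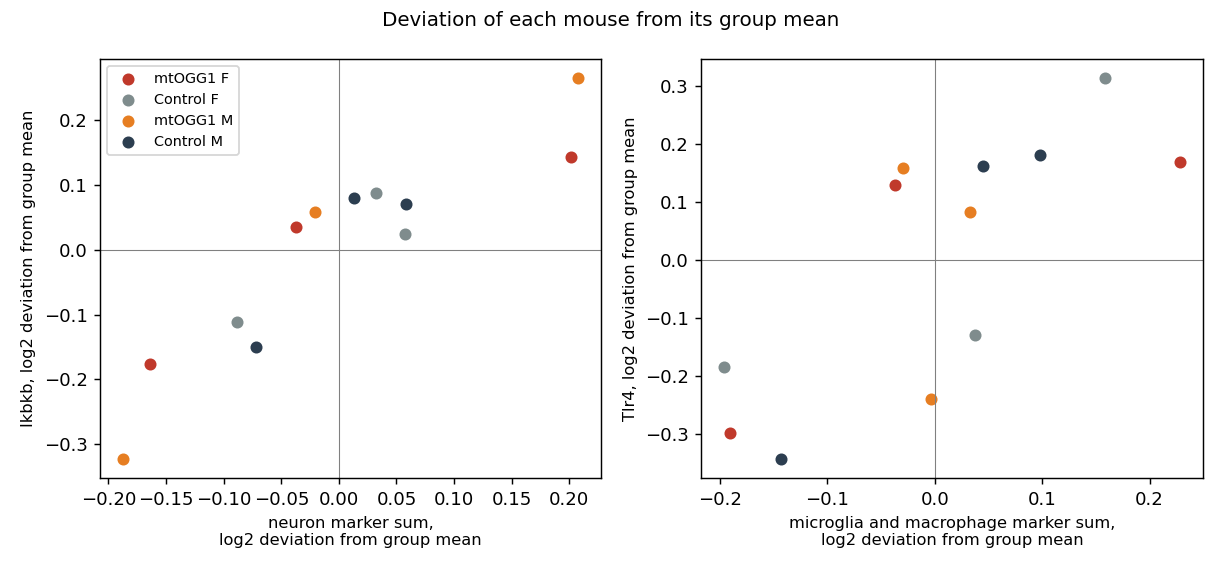
Deviation of each of the 12 mice from its group mean on the log2 scale: Ikbkb against the neuron marker sum (left) and Tlr4 against the microglia and macrophage marker sum (right), coloured by group. Relative to its group mean, Ikbkb is higher in mice whose neuron marker sum is higher (r = 0.92), and the Tlr4 points scatter more (r = 0.76). Neither relation passed after adjustment over the 44.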

How the data were processed

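Hippocampal RNA of 12 mice was counted on an nCounter panel. The authors deposited normalized signal and, by the design text, worked with NanoString's Advanced Analysis software. Above 20, dividing by a mouse's own factor (0.820 to 1.27) returned whole counts within 0.012. Lower gene values stand at 20, and control probes carry no factor. The sources used here do not say how factors were derived. A metabolic panel is named in the labels' protocol, while the genes listed include many of inflammation.

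Values were fitted as log2(value + 1) with limma 3.58.1 in R 4.3.3, a mean for each of the 4 groups, a variance trend and Benjamini-Hochberg adjustment over the 608 genes above 20 in at least 3 mice. The floor leaves no complete count table, so no count model was run. Full values are given for members past the threshold, of smallest p in each comparison (8 over both sexes, 4 in each other), best detected in their role, or of fixed role. The members and lists were chosen with earlier results of these data known. All 33 symbols matched RefSeq. Replicates of a group differed by a chi-square per degree of freedom of at least 2.46 over 12 pairs. Alternatives covered the pseudocount, filter, scaling, variance model, replicate block, Slc17a6 covariate, each mouse left out and exact permutation. Python 3.11.15 and matplotlib 3.10.9 were used for tables and figures.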

Additional observations from a re-analysis of the deposited data

How the results depend on the processing

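No member passed the test in any of the 5 comparisons under the main settings or under any of 24 alternatives. The smallest adjusted p of a member over all settings was 0.149 over both sexes, 0.733 in females, 0.155 in males, 0.484 for the interaction and 0.134 for sex. With 1 mouse left out the median log2 fold change of the members ran from -0.12 to -0.023 over both sexes, -0.076 to 0.01 in females, -0.13 to -0.01 in males, -0.024 to 0.13 for the interaction and 0.027 to 0.081 for sex. The lowest interaction median came without control male 2, and it was the one median that moved by more than the spread between mice (0.097). That spread is the SD between single mice of a group, not the error of a difference between groups. It is larger than the size of every main median, so a median can change sign within it. In females the median went from -0.032 to 0.027 under median centring. Changes of filter, variance model or replicate block cannot alter a log2 ratio. Nor can leaving out a mouse of the other sex alter a ratio within a sex. Of 31 results for named members, chosen in part for their small p, 26 kept their direction under all alternatives run. Their size was less steady: 19 of the 31 moved by over 1.5 times when some mouse was left out, and 7 with the Slc17a6 covariate. Among these, over both sexes with 1 mouse left out, Rela ran from -0.14 to -0.0094, Myd88 from -0.26 to -0.045, Ripk2 from -0.33 to -0.12, Nfkb1 from 0.069 to 0.21, Mapk10 from -0.19 to -0.092 and Traf3 from 0.10 to 0.21. With the Slc17a6 covariate Mapk10 had -0.025. With the Slc17a6 covariate, Map2k1 had 0.062 and Nfkb1 -0.0023 over both sexes. With 1 mouse left out, the log2 fold change over both sexes ran from -0.13 to 0.0069 for Irak2, -0.11 to 0.036 for Map2k1, -0.063 to 0.10 for Reln and -0.16 to 0.0045 for Tlr4. The cause was not tested. No pairing of the mice by the replicate numbers of the labels was seen. Correlations of deviations between same-numbered mice ran from -0.48 to 0.46, and 3 of 12 mice correlated best with a mouse of their own number. With 3 mice per group, such a check cannot show that the numbers carry no pairing. With the replicate number as a block the count of members stayed at 0 in each comparison. Each number occurs once per group, so the block cannot change the log2 ratios, and the members' median over both sexes stayed at -0.072 by design. The depth limits members near the floor most, since levels below 20 are hidden.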
